A study of Mus musculus with 6 samples.

Results

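The integrated stress response and the unfolded protein response were followed through 40 genes, taken by name from the series' table of 35275 gene identifiers. They are Atf4, 16 genes that its protein product is known to activate, 9 sensors and regulators, and 14 genes for protein folding and quality control in the endoplasmic reticulum (ER), called ER chaperones here although some act in ER-associated degradation or are secreted. The genes were listed by their known roles, with earlier results of these data in view. All 40 were found in the table, and 39 reached the mean level required for testing.

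The integrated stress response is a shared brake on protein synthesis. Kinases that sense unfolded ER proteins, missing amino acids, haem shortage or mitochondrial trouble phosphorylate the initiation factor eIF2, which slows most translation but favours that of the Atf4 messenger. ATF4 then switches on genes for amino acid synthesis, folate metabolism and feedback. The unfolded protein response uses one of these kinases, PERK, together with IRE1, which splices the Xbp1 messenger, and ATF6, which is cut from its membrane anchor. The last pair mainly raise ER chaperones, which keratinocytes also use when they make secreted and membrane proteins during differentiation. Gene-level values measure neither translation of Atf4 nor splicing of Xbp1.

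The libraries came from epidermal cells of mouse embryos of the CD1 IGS strain. The dams are described as K10-rtTA;TRE-H2B-GFP;TRE-Spastin and received doxycycline chow from embryonic day E14.5 until tissue was taken at E16.5. The keratin 10 promoter, active in suprabasal cells, controls rtTA, which needs doxycycline to switch on a nuclear green fluorescent protein and spastin, an enzyme that severs microtubules. Green cells of the back skin epidermis were sorted. The 3 control libraries carry the genotype label control, with no allele listed, and the 3 K10-spastin libraries the label K10rtTA;TREspastin. The sources used here do not state which transgenes the controls carried or how many embryos entered a library. Differences are therefore between the groups as labelled. The spread behind each p-value is that of the 3 RNA samples per group, which may be technical in part. Values are given in the order of libraries 1, 2 and 3.

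Depth read from the low values was 16.01 to 22.5 M fragments (M, mega) per library, so that 3 fragments in a transcript of 1 kb were worth 0.133 to 0.187 FPKM (fragments per kilobase of transcript and M fragments sequenced). Spast, the induced gene, was at 21.2, 24.0 and 21.4 FPKM in controls against 1431, 639 and 213 FPKM in K10-spastin. The table holds Spast once, so fragments of the transgene and of the endogenous gene cannot be told apart. K10-spastin 1 stood apart from the others on the first principal component, at 62.5 against 31.5 and 24.3. Its factor for scaling by median of ratios was also the lowest, 0.826 against 1.01 to 1.08 in the other libraries. Levels in FPKM are given without this scaling, so those of K10-spastin 1 may run low. Krt1 and Krt10, which mark suprabasal cells, were at 11406 FPKM or more in every library. Of the fibroblast markers, 4 of 8 were below 1 FPKM in every library, and the sum of all 8 was 6.52 to 42.6 FPKM in controls and 0.791 to 3.09 FPKM in K10-spastin. All 6 endothelial markers, 5 of 8 leukocyte markers (Cd3e and Cd207 listed at 0), 4 of 5 Merkel cell markers and 1 of 6 melanocyte markers stayed below 1 FPKM in all libraries. Of 8 suprabasal markers Krt10 fell, with 4 log2 changes above 0 and 4 below. Of 8 basal markers Krt15 fell, with 6 log2 changes below 0 and a median of -0.89. Of 7 granular markers Ivl rose, with all 7 log2 changes above 0, and of 4 tested fibroblast markers Dcn fell. The part of these markers in the results was not tested. Fewer cells of a kind and less RNA per cell cannot be told apart in such libraries.

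The comparison asks whether ATF4 targets and ER chaperones differed between K10-spastin and control cells. Trib3, Mthfd2, Chac1, Cebpb and Asns, 5 of 16 ATF4 targets, rose, and Atf3 fell. Of these, Chac1 reached the mean level required for testing only through the K10-spastin libraries, where it was high. Hsp90b1 was the 1 of 14 ER chaperones that rose (7.1%, near the 5.14% of all genes tested), and none fell. Of 8 tested sensors and regulators, Ppp1r15a fell and none rose. A gene is said to have risen or fallen where limma's adjusted p was under 0.05 over all 11071 genes tested. All log2 changes are differences of log2(FPKM + 1), K10-spastin minus control, given with their standard error (SE). This scale understates the change of genes near 1 FPKM.

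Across all genes tested 11.0% were called, 5.14% higher and 5.9% lower. At an unadjusted p under 0.05 limma placed 12.8% of all genes higher and 18.7% lower. Among the 39 tested members 6 rose (15.4%) and 2 fell (5.1%). The groups did not overlap, with every K10-spastin library above every control, in 13 members, against 15.6% of all genes tested, and with every one below in 5, against 24.8%. The median log2 change was 0.47 for ATF4 targets, 0.29 for ER chaperones and -0.16 for sensors and regulators, beside -0.09 for all genes tested. Median-of-ratios scaling moved the last value to 0.01. Of all genes tested, 41.6% had a log2 change above 0.

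**Figure D1:**
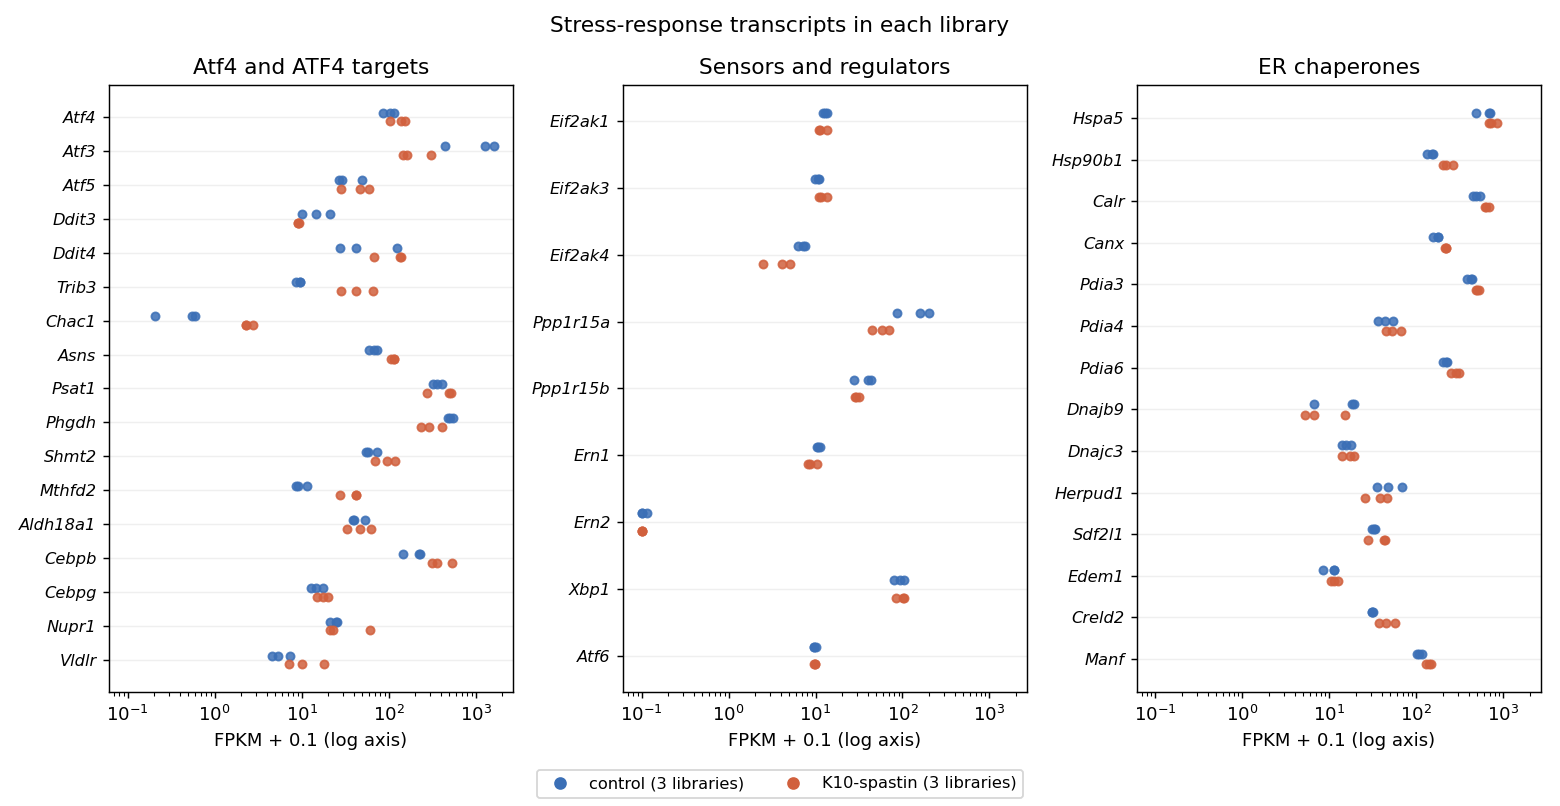
FPKM plus 0.1, on a log axis, for the 40 genes in each of the 3 control (blue) and 3 K10-spastin (orange) libraries, 1 point per library. The orange points lie to the right of all blue points for Trib3, Chac1, Asns, Mthfd2 and Cebpb. With smaller log2 changes they also do so for Eif2ak3 and 7 of 14 ER chaperones (Hsp90b1, Calr, Canx, Pdia3, Pdia6, Creld2 and Manf). They lie to the left for Atf3, Ddit3, Phgdh, Eif2ak4 and Ppp1r15a.

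**Figure D2:**
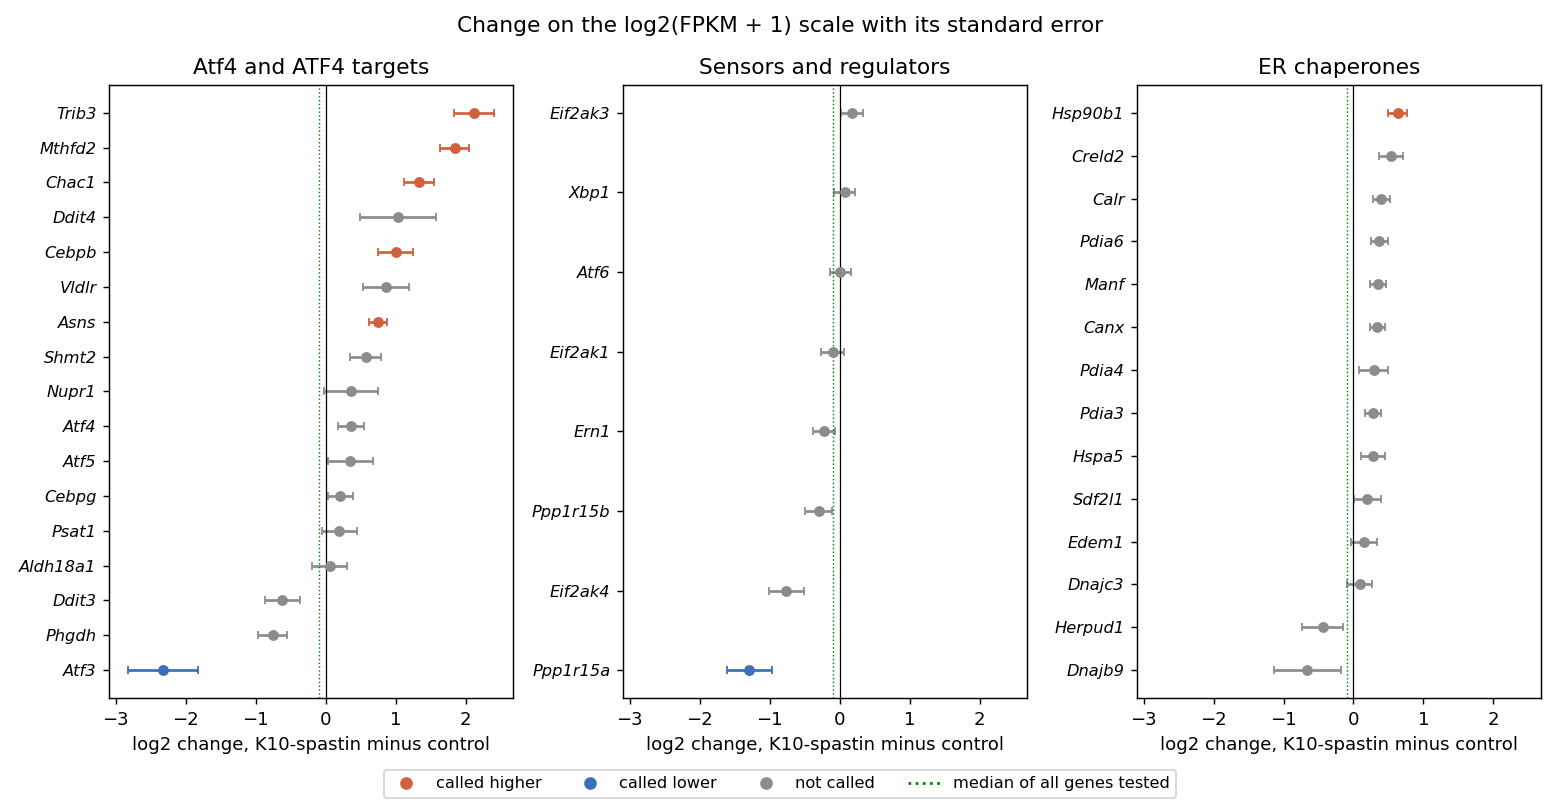
Log2 change of the 39 tested genes on the log2(FPKM + 1) scale (x axis) with 1 SE either side, orange for genes called higher, blue for genes called lower and grey for the rest. The dotted line is the median of all genes tested, -0.09. ATF4 targets spread from -2.33 (Atf3) to 2.12 (Trib3), and ER chaperones from -0.66 (Dnajb9) to 0.63 (Hsp90b1).

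None of the kinases and transducers that start both responses was called by limma, with Eif2ak4 the 1 kinase lower at an unadjusted p under 0.05. Eif2ak3, which encodes the ER kinase PERK, was at 10.8, 10.5 and 9.77 FPKM in controls against 11.4, 13.5 and 10.9 FPKM in K10-spastin. The K10-spastin libraries were all above the controls by a narrow margin, and the log2 change of 0.18 ± 0.16 was not called (adjusted p = 0.464). Ern1, which encodes IRE1, was at 10.2 to 11.2 FPKM in controls and 8.07 to 10.4 FPKM in K10-spastin, and its log2 change was -0.22 ± 0.16 (adjusted p = 0.397). Its gut-type relative Ern2 gave about 1 fragment in control 1 and was listed at 0 in the other 5 libraries, so it was not tested.

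The 6 libraries lay closest together for Atf6. It was at 9.42, 9.56 and 10.01 FPKM in controls against 9.77, 9.80 and 9.52 FPKM in K10-spastin, with a 95% interval for the log2 change of -0.34 to 0.35. Xbp1, the target of IRE1, was at 103, 92.6 and 79.6 FPKM in controls against 84.9, 100.4 and 103 FPKM in K10-spastin. Its groups overlapped, and the 95% interval was -0.27 to 0.41. The haem-regulated kinase gene Eif2ak1 had a log2 change of -0.10 ± 0.16 (adjusted p = 0.698).

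Eif2ak4, which encodes the amino acid sensor GCN2, was at 6.99, 6.27 and 7.57 FPKM in controls against 2.38, 3.99 and 5.03 FPKM in K10-spastin. Every K10-spastin library was below every control, with K10-spastin 1 the lowest, and the log2 change of -0.76 ± 0.25 did not pass the test (adjusted p = 0.0839).

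The eIF2 phosphatase subunits end the response. Ppp1r15a, which encodes the inducible subunit GADD34 and is itself raised during stress, was at 86.0, 159 and 200 FPKM in controls against 58.5, 44.3 and 70.1 FPKM in K10-spastin. The controls differed among themselves, with control 1 the lowest, yet all were above K10-spastin. Ppp1r15a fell by 1.29 ± 0.32 on the log2 scale (adjusted p = 0.0455). Ppp1r15b, which encodes the constitutive subunit, was at 27.7 to 43.5 FPKM in controls against 28.5 to 31.2 FPKM in K10-spastin. Its log2 change was -0.30 ± 0.19 (adjusted p = 0.319). Ppp1r15a was not called when control 2 or 3, or K10-spastin 1 or 2, was left out (adjusted p up to 0.146), nor with median-of-ratios scaling (0.0746), no filter or limma without a trend.

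Atf4 itself was at 87.1, 104 and 116 FPKM in controls against 152, 138 and 105 FPKM in K10-spastin. K10-spastin 1 and 2 were above all controls and K10-spastin 3 was among them. The log2 change of 0.36 ± 0.18 was not called (adjusted p = 0.222), with a 95% interval of -0.07 to 0.78.

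Trib3 encodes a pseudokinase that ATF4 induces and that restrains ATF4 in return. It was at 9.43, 9.41 and 8.58 FPKM in controls against 66.3, 42.1 and 28.3 FPKM in K10-spastin. The controls lay close together and every K10-spastin library was well above them. The ratio of the group means was 4.98 and the log2 change 2.12 ± 0.29 (adjusted p = 0.00974). Chac1, which encodes an enzyme that degrades glutathione, was at 0.109, 0.496 and 0.443 FPKM in controls against 2.64, 2.22 and 2.22 FPKM in K10-spastin. These low levels rest on about 4, 13 and 12 fragments in controls and 75, 71 and 63 in K10-spastin. The control mean of 0.349 FPKM was below the 1 FPKM required for testing, which Chac1 passed through K10-spastin (2.36 FPKM). The ratio of the group means was 6.75, and the log2 change on the compressed scale was 1.33 ± 0.21 (adjusted p = 0.0136).

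Cebpb encodes a transcription factor that can pair with ATF4 and also acts in keratinocyte differentiation. It was at 147, 232 and 224 FPKM in controls against 540, 358 and 319 FPKM in K10-spastin, so all K10-spastin libraries were higher. Its log2 change was 1.00 ± 0.25 (adjusted p = 0.0476). This call was lost in 12 of 15 other settings, among them the removal of any library other than K10-spastin 3, both scalings, no filter and pseudocount 0.1 (adjusted p up to 0.117). The exons of Cebpb share 20.7% of their bases with Tmem189 on the opposite strand, which reached 20.3 FPKM, and the sources used here do not state whether counting used strand.

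Among the members for amino acid and folate metabolism Asns and Mthfd2 rose. Asns, asparagine synthetase, was at 73.0, 59.1 and 68.0 FPKM in controls against 105, 116 and 116 FPKM in K10-spastin. Both groups were tight and did not overlap, and the log2 change was 0.75 ± 0.13 (adjusted p = 0.0175). Mthfd2, the mitochondrial folate enzyme, was at 11.4, 8.48 and 8.95 FPKM in controls against 27.8, 42.5 and 41.9 FPKM in K10-spastin. It rose by 1.84 ± 0.21 on the log2 scale (adjusted p = 0.00629), a ratio of group means of 3.89. Mthfd2 was the 1 member called in all 15 other settings.

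The neighbouring enzymes of serine metabolism were not called, and their difference from Mthfd2 or Asns was not tested. Phgdh, which starts serine synthesis, was at 553, 481 and 514 FPKM in controls against 234, 291 and 414 FPKM in K10-spastin. All K10-spastin libraries were lower, and the log2 change of -0.76 ± 0.21 narrowly missed the test (adjusted p = 0.0579). It was called under median-of-ratios scaling, quantile normalization and without K10-spastin 3. Phgdh has many near-identical pseudogene copies, of which Gm13337 reached 5.86 FPKM, so fragments may be split between them. Psat1, the next enzyme, had a log2 change of 0.19 ± 0.25 (adjusted p = 0.647), with K10-spastin 1 lowest of all 6 libraries at 274 FPKM and K10-spastin 2 and 3 highest at 496 and 516 FPKM. Shmt2, which passes serine carbon to folate in mitochondria, was at 54.6 to 74.0 FPKM in controls against 68.9 to 119 FPKM in K10-spastin (0.57 ± 0.22, adjusted p = 0.128). Shmt2 was called higher with median-of-ratios scaling (adjusted p = 0.0386) and without K10-spastin 1 (0.0414). Aldh18a1, for proline synthesis, had a log2 change of 0.06 ± 0.25 (adjusted p = 0.897).

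Without control 2 the ATF4 targets that rose numbered 2, and without control 3 only Mthfd2 was called. Trib3 was at an adjusted p of 0.0538 without control 3, and Asns and Chac1 were at up to 0.0815 and 0.0617 without control 2 or control 3.

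The promoters of the 3 ATF4 targets with the smallest p among those called are shown to place the element that ATF4 and C/EBP proteins bind. The windows run from 250 bases before to 50 after the RefSeq start in GRCm38.p6, in the direction of the gene. Capitals mark matches to TGATGNAA on either strand, with the free base in lower case. Mthfd2 lies at chr6:83317555-83317854 (minus strand), Trib3 at chr2:152344011-152344310 (minus strand) and Chac1 at chr2:119350992-119351291 (plus strand).
Trib3: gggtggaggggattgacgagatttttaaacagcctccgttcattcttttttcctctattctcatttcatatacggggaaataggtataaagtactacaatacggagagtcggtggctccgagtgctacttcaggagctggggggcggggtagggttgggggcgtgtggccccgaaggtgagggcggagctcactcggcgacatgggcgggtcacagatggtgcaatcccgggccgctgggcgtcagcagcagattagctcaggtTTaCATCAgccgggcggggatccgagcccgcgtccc
Chac1: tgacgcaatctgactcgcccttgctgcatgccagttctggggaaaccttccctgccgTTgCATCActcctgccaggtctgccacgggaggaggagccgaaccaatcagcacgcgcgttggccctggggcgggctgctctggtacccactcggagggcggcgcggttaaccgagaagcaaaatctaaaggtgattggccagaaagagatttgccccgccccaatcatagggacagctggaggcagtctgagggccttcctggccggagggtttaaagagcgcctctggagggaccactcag
Mthfd2: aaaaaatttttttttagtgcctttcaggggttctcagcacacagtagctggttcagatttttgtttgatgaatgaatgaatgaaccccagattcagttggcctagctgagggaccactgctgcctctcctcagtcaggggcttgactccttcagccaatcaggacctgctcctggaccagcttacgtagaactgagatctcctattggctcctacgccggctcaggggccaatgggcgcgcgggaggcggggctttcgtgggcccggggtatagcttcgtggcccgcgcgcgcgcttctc

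The match in Trib3 is at 15 to 22 counted from the start and that in Chac1 at -193 to -186. The Mthfd2 window has no match to these letters. Of the 16 ATF4 targets, all with a promoter in the table, 6 had a match in such a window, against 3.97% of 32851 promoters. The letters read TTGCATCA in the window of Chac1, which rose, and of Atf3, which fell, and also in those of Nupr1 and Vldlr, which were not called. Asns held TGATGAAA. A match describes these letters only.

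Atf3 and Ddit3, stress-induced transcription factors downstream of ATF4, were lower and not higher in K10-spastin. Atf3 was at 446, 1274 and 1646 FPKM in controls against 145, 162 and 306 FPKM in K10-spastin. Control 1 was far below the other controls but still above all K10-spastin libraries. Atf3 fell by 2.33 ± 0.50 on the log2 scale (adjusted p = 0.0317). Ddit3, which encodes the death-linked factor CHOP, was at 10.1, 14.4 and 20.8 FPKM in controls against 8.93, 9.10 and 9.21 FPKM in K10-spastin. The K10-spastin libraries were nearly equal and just below control 1, and the log2 change of -0.62 ± 0.25 was not called (adjusted p = 0.142). Its exons share 4.0% of their bases with Mars, which reached 85.4 FPKM. Atf3 was not called when control 2 or 3, or K10-spastin 1 or 2, was left out (adjusted p up to 0.107), nor with no filter (0.0696).

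Atf3 and Ppp1r15a are also immediate-early genes, which respond within minutes to handling of tissue. A list of 14 immediate-early and heat shock genes known to respond to dissociation (Fos, Fosb, Jun and others) summed to 7086, 9366 and 11595 FPKM in controls against 3549.5, 4068 and 5025 FPKM in K10-spastin. Of these genes 6 fell (42.9%) and none rose, against 5.9% and 5.14% of all genes tested. At an unadjusted limma p under 0.05, 2 were higher and 10 lower, against 12.8% and 18.7% of all genes. The log2 changes of Ier3 (1.12 ± 0.33) and of the heat shock genes Hspa1a (0.52 ± 0.20) and Hspa1b (0.33 ± 0.20) were above 0. Those of the other 11 genes were below 0. Ier3, Hspa1a and Hspa1b were chosen for naming after their values were seen. Control 1 was the lowest control in the list sum, in Atf3, in Ppp1r15a and in Ddit3. The part of this list in the differences of those genes was not tested.

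**Figure D3:**
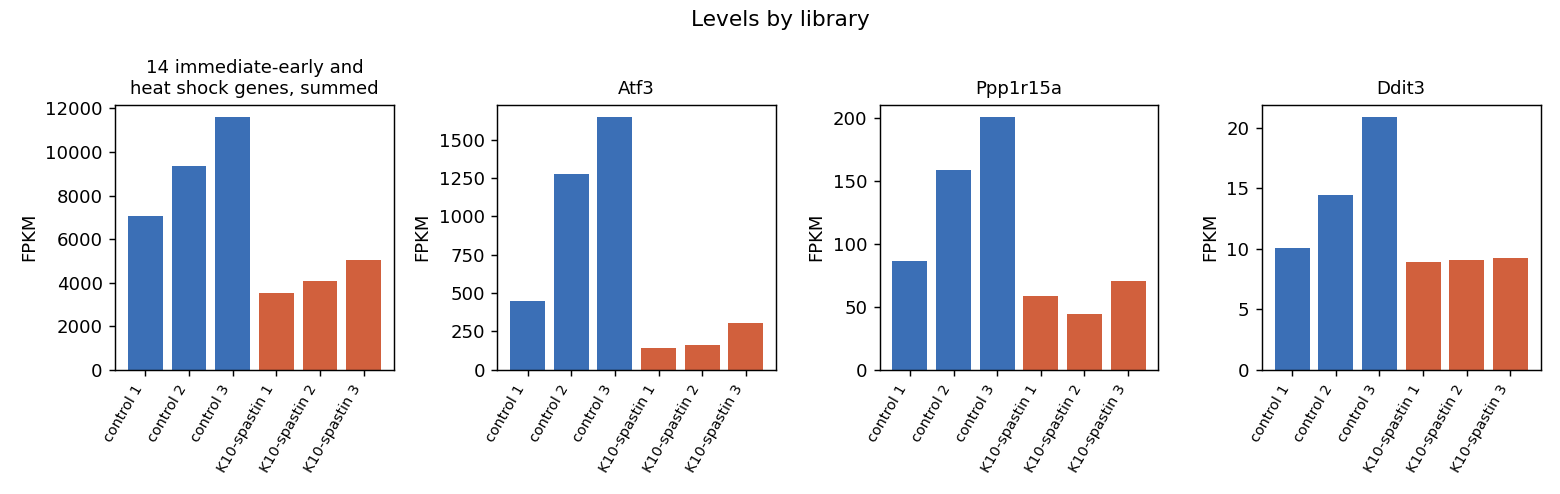
FPKM in each of the 6 libraries (bars, axis from 0) for the sum of 14 immediate-early and heat shock genes and for Atf3, Ppp1r15a and Ddit3. Controls 2 and 3 are the highest libraries in every panel, and control 1 lies between them and the K10-spastin libraries.

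The other ATF4 targets were not called, and the libraries of a group differed widely for some of them. Ddit4, which encodes the mTORC1 inhibitor REDD1, was at 124, 41.7 and 27.9 FPKM in controls against 134, 140.1 and 67.6 FPKM in K10-spastin, so control 1 lay near the K10-spastin libraries (1.03 ± 0.54, adjusted p = 0.236). Nupr1, a small stress-induced nuclear protein, was at 60.3 FPKM in K10-spastin 1 and between 21.2 and 25.4 FPKM in the other 5 libraries. The lipoprotein receptor gene Vldlr was at 4.48 to 7.28 FPKM in controls against 17.9, 10.1 and 7.01 FPKM in K10-spastin (0.86 ± 0.33, adjusted p = 0.129). Atf5 and Cebpg, further transcription factors of the response, had log2 changes of 0.35 ± 0.32 and 0.21 ± 0.18 (adjusted p = 0.505 and 0.457).

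**Figure D4:**
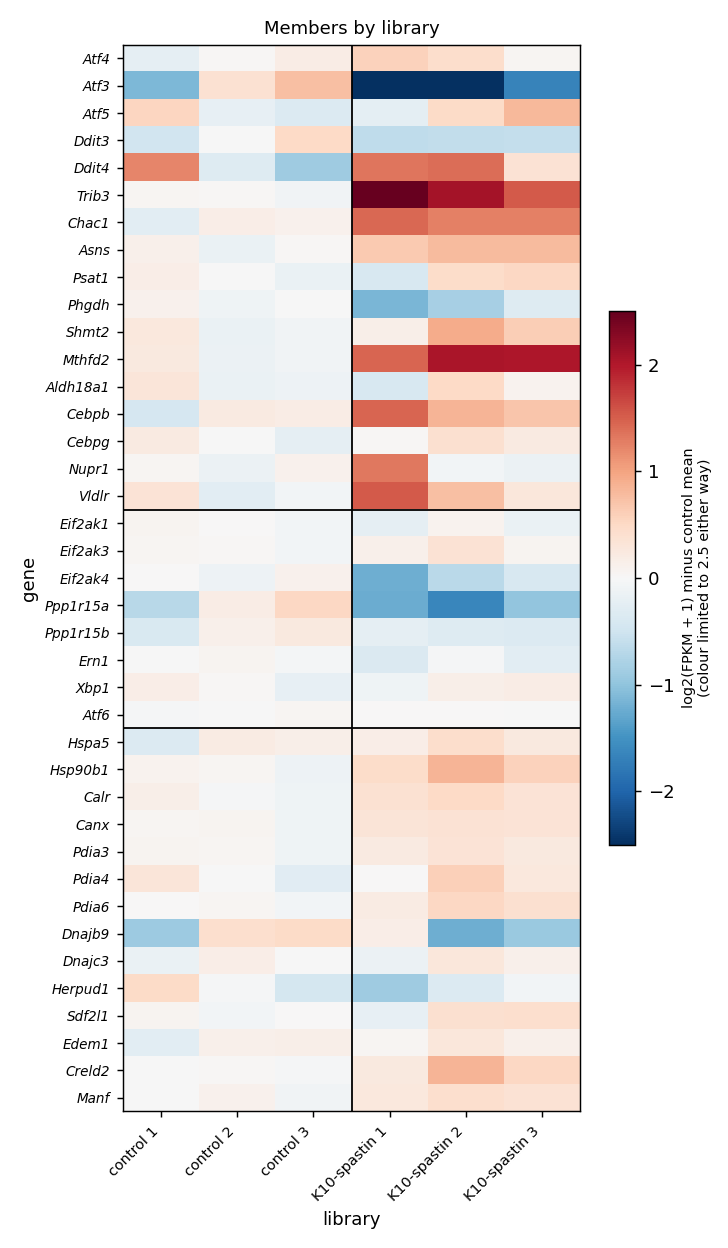
Log2(FPKM + 1) minus the mean of the 3 controls for each tested gene (rows) in each library (columns), with lines between Atf4 and its targets, sensors and regulators, and ER chaperones. Trib3, Mthfd2 and Chac1 are red in all 3 K10-spastin libraries, Nupr1 is red in K10-spastin 1 alone, and Ddit4, Dnajb9 and Atf3 also differ among the controls.

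Among ER chaperones 12 of 14 log2 changes were above 0, against 41.6% of all genes tested, and Hsp90b1 alone passed the test. Hsp90b1, which encodes the ER form of HSP90, was at 154, 151 and 134 FPKM in controls against 200, 262 and 219 FPKM in K10-spastin. No K10-spastin library was as low as a control, and Hsp90b1 rose by 0.63 ± 0.14 on the log2 scale (adjusted p = 0.0349). Hspa5, which encodes BiP, the main ER HSP70 and the usual readout of ER stress, was at 490, 711 and 681 FPKM in controls against 692, 844 and 730 FPKM in K10-spastin. Control 1 was the lowest and controls 2 and 3 were near K10-spastin 1. The log2 change of 0.28 ± 0.17 was not called (adjusted p = 0.308), and its 95% interval was -0.13 to 0.69.

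The lectin chaperones that hold glycoproteins, Calr and Canx, were above the controls in every K10-spastin library. Calr was at 537, 479 and 450 FPKM in controls against 631, 687 and 616 FPKM in K10-spastin (0.40 ± 0.12, adjusted p = 0.073). Canx was at 157 to 177 FPKM in controls against 211 to 219 FPKM in K10-spastin (0.34 ± 0.11, adjusted p = 0.082). The disulfide isomerases Pdia3 and Pdia6 were likewise separated, with log2 changes of 0.28 ± 0.11 and 0.37 ± 0.12 (adjusted p = 0.146 and 0.0909), while Pdia4 overlapped (0.29 ± 0.21, adjusted p = 0.375). Creld2 and Manf, which ER stress is known to induce, had log2 changes of 0.54 ± 0.17 and 0.35 ± 0.12 (adjusted p = 0.0825 and 0.0914).

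In all, 7 of 14 ER chaperones had every K10-spastin library above every control, against 15.6% of all genes tested. None had every one below, against 24.8%. At an unadjusted limma p under 0.05, 7 were higher and none lower (12.8% and 18.7% of all genes). The count called was 5 with median-of-ratios scaling, which added Calr, Pdia6, Creld2 and Manf, and 3 without K10-spastin 1. Hsp90b1 was not called without any one library other than K10-spastin 1 (adjusted p up to 0.143), with no filter, or with limma without a trend. Its exons share 10.3% of their bases with 1810014B01Rik, which reached 1.12 FPKM.

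The groups overlapped for the other members with roles near IRE1, BiP and the degradation of ER proteins, and none was called. Dnajb9, a co-chaperone and a target of spliced XBP1, was at 6.58, 18.2 and 18.9 FPKM in controls against 15.02, 5.12 and 6.49 FPKM in K10-spastin. Control 1 and K10-spastin 1 each stood apart from the rest of their group, in opposite directions (-0.66 ± 0.48, adjusted p = 0.389). Herpud1, an adaptor for degradation of ER proteins, was at 67.5, 47.4 and 35.3 FPKM in controls against 25.5, 37.8 and 45.8 FPKM in K10-spastin (-0.44 ± 0.29, adjusted p = 0.335). Edem1, which marks misfolded glycoproteins for removal, had a log2 change of 0.15 ± 0.18 (adjusted p = 0.6), Sdf2l1, a BiP cofactor, one of 0.20 ± 0.19 (0.522), and Dnajc3, which also restrains PERK, one of 0.09 ± 0.18 (0.77).

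The promoter of Hsp90b1 is shown because Hsp90b1 was the 1 ER chaperone called. The promoter holds 2 copies of the ER stress response element. It lies at chr10:86705395-86705694 (GRCm38.p6, minus strand), and capitals mark CCAAT and CCACG, or their complements, separated by 9 bases.
Hsp90b1: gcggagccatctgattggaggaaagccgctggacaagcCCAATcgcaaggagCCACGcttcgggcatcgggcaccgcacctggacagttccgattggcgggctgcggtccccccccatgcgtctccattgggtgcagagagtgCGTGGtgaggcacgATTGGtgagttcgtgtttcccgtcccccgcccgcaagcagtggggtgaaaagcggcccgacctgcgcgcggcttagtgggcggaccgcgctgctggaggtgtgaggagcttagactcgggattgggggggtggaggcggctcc

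The copies lie at -212 to -194 and, on the opposite strand, at -107 to -89 counted from the start. Of 13 ER chaperones with a promoter in the table, 7 held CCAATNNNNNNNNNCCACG on either strand (Hsp90b1, Hspa5, Calr, Canx, Creld2, Dnajc3 and Pdia6), against 0.12% of all promoters and none of the 16 ATF4 targets. Herpud1 held the related ATTGGNCCACG, found in 0.04% of promoters and ending in the same CCACG, and also a match to the C/EBP-ATF letters. None of the 36 members with a promoter in the table held TGACGTGG, bound by XBP1 and ATF6, which 0.68% of promoters held. Among the 7 genes with the first element, Hsp90b1 rose and the other 6 were not called.

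Set side by side per library, the mean log2(FPKM + 1) of the 16 ATF4 targets was 5.45, 5.31 and 5.35 in controls 1 to 3 and 5.78, 5.86 and 5.77 in K10-spastin 1 to 3. For the 14 ER chaperones it was 6.29, 6.41 and 6.28 in controls and 6.41, 6.63 and 6.54 in K10-spastin. K10-spastin was above control in each mean, with ER chaperones of K10-spastin 1 level with control 2. These means were not scaled by median of ratios, for which K10-spastin 1 had the lowest factor (0.826). The difference, ATF4 targets minus ER chaperones, averaged -0.96 ± 0.13 in controls and -0.73 ± 0.08 in K10-spastin (SD, n = 3). It thus shifted by 0.23 towards ATF4 targets, with no overlap between the groups (-1.09 to -0.84 against -0.77 to -0.64) and between 0.16 and 0.29 with any one library left out. The shift was 0.17 with the filter at 5 FPKM, where Chac1 is not tested. Such a mean depends on the genes with large log2 changes, here Trib3 (2.12), Mthfd2 (1.84), Chac1 (1.33) and, downwards, Atf3 (-2.33). Of the 16 ATF4 targets 13 changes were above 0 and 3 below, beside 41.6% of all genes tested above 0. The shift without the other single genes was not computed. No test was made, since the genes were chosen with earlier results known.

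**Figure D5:**
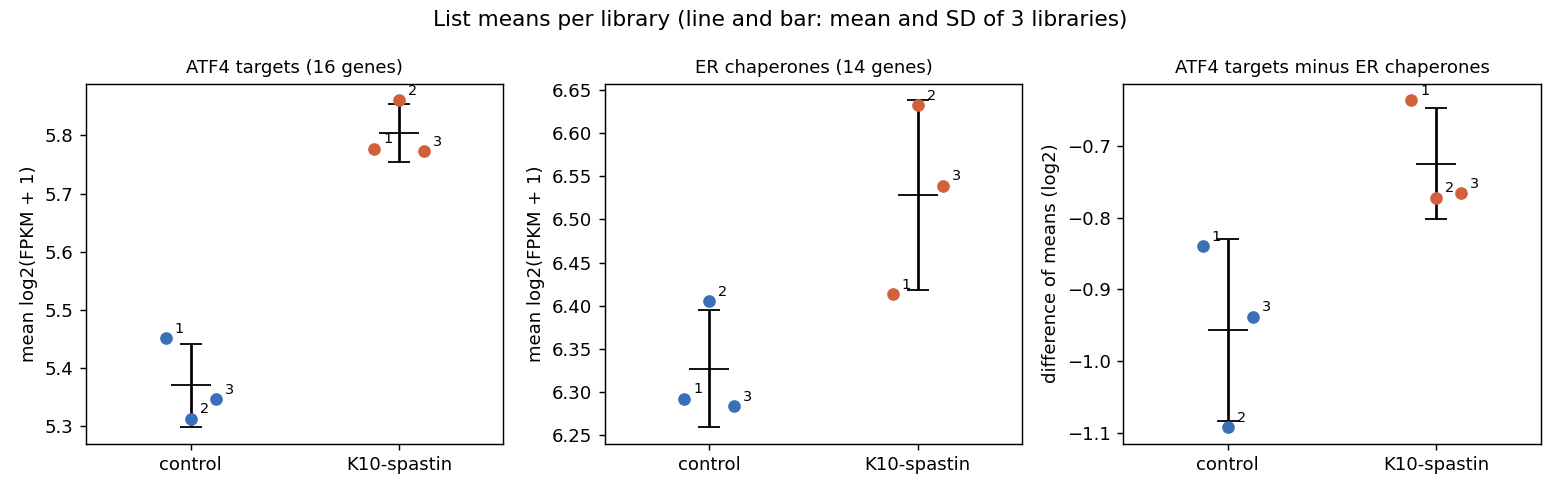
Mean log2(FPKM + 1) per library (points, numbered by replicate) of 16 ATF4 targets, of 14 ER chaperones and the difference of these means, with the mean and SD of 3 libraries per group. Each panel has its own y axis, which does not start at 0. The K10-spastin points are above the control points in each panel, with K10-spastin 1 and control 2 nearly level for ER chaperones.

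Further genes of these pathways were read from lists of textbook members. Of 21 other tested ATF4-linked genes, 3 rose (14.3%) and 2 fell (9.5%), against 5.14% and 5.9% of all genes tested. At an unadjusted limma p under 0.05, 6 were higher and 4 lower, against 12.8% and 18.7% of all genes. The median log2 change was 0.21. Mthfd1l, the mitochondrial folate enzyme that acts after Mthfd2, rose by 1.07 ± 0.22 on the log2 scale, the amino acid transporter Slc38a2 by 1.06 ± 0.25 and the mitochondrial enzyme Pck2, at 0.59 FPKM in controls and 2.16 in K10-spastin, by 0.99 ± 0.22. Like Chac1, Pck2 reached the mean level required for testing only through K10-spastin. Cbs, of the pathway from homocysteine to cysteine, changed by -1.49 ± 0.24 and the alanine transaminase Gpt2 by -0.91 ± 0.20. The adjusted p of these 5 genes was 0.0154 to 0.0411. Slc38a2, Pck2 and Gpt2 were chosen for naming after their values were seen.

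Of 12 cytosolic aminoacyl-tRNA synthetases, which load transfer RNAs and include ATF4 targets, Gars and Nars rose (16.7%) and none fell. Among all genes tested 5.14% rose and 5.9% fell. At an unadjusted limma p under 0.05, 5 synthetases were higher and none lower, against 12.8% and 18.7% of all genes. Gars was at 81.2, 70.6 and 73.1 FPKM in controls against 122, 122 and 125 FPKM in K10-spastin (0.71 ± 0.11, adjusted p = 0.0152). Nars had a log2 change of 0.66 ± 0.14 (adjusted p = 0.0292). The median of the list was 0.36. None of 14 genes of eIF2, its exchange factor eIF2B and their regulators was called by limma. At an unadjusted p under 0.05, 4 were higher and none lower (12.8% and 18.7% of all genes). Of 10 genes of mitochondrial stress and proteostasis, the chaperonin Hspd1 rose by 0.90 ± 0.17 on the log2 scale (adjusted p = 0.0221).

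On the ER side, of 18 further folding genes 1 rose (5.6%) and 1 fell (5.6%), near the 5.14% and 5.9% of all genes tested. The BiP co-chaperone Dnajb11 rose by 0.49 ± 0.11 and the BiP exchange factor Sil1 fell by 0.88 ± 0.21 on the log2 scale (adjusted p = 0.0344 and 0.0449). Of 17 degradation genes 3 rose (17.6%) and none fell (4 higher and 1 lower at an unadjusted limma p under 0.05). They were Edem3 (0.76 ± 0.14), Ubxn4 (0.58 ± 0.11) and Nploc4 (0.55 ± 0.11), the last named after its value was seen. None of 26 genes for entry into and export from the ER was called by limma, with 6 higher and none lower at an unadjusted p under 0.05 (12.8% and 18.7% of all genes) and a median of 0.19. A list of 13 other tested genes, most of them linked to IRE1 and ATF6, had a median log2 change of -0.08. In it 6 changes were above 0 and 7 below. Of these genes 2 rose and none fell, against 5.14% and 5.9% of all genes tested. The ER-bound factor Creb3 rose by 0.91 ± 0.20 and Hsph1 by 1.97 ± 0.28 (adjusted p = 0.0337 and 0.0114). Hsph1 was on this list although it encodes a cytosolic HSP110 chaperone and not an ER protein.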

How the data were processed

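RNA was measured in 6 libraries of sorted epidermal cells, 3 control and 3 K10-spastin, grouped by the genotype label. The authors deposited FPKM, per the file's name, with 1 column per library. Per the submitters' processing notes, CASAVA and TopHat2 were used, with no version listed. The sources used here do not state the counter, genome build, annotation or strandedness. Symbols from a gene name table matched 34490 of 35275 identifiers. Depth was read from the step between low FPKM values with GENCODE M21 exon lengths, and 90.5% to 91.5% of values up to 20 fragments were whole within 0.05. No count test was run, since FPKM are not counts.

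The 11071 genes whose mean over the 6 libraries reached 1 FPKM were tested on log2(FPKM + 1) with limma 3.58.1 in R 4.3.3 (lmFit, eBayes with a trend, two-sided, no covariate), with Benjamini-Hochberg adjustment over all of them. The script was tested on simulated data. With 3 libraries a side the smallest two-sided p of an exact permutation test is 0.1, so limma's variance pooled over genes was used. Members and lists were chosen with earlier results of these data known. All 40 members could be named, and from each other list the 2 genes of lowest p and the 2 of highest mean FPKM. Alternatives were other pseudocounts (0.1, 0.5), other filters (none, 5 FPKM), scaling by median of ratios, quantile normalization, limma without a trend or with robust variances, the replicate block, and each library left out. Copies were sought with BLAST 2.17.0 (90% identity over 200 bases). Promoters came from RefSeq (GRCm38.p6) by symbol and matched 36 members. A member was counted once if any of its promoters held a match (4 members had more than 1). The share over all promoters counts each promoter. Tables and plots were made in Python 3.11.15 with pandas 2.3.3, numpy 2.4.6 and matplotlib 3.10.9.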

Additional observations from a re-analysis of the deposited data

How the results depend on the processing

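All 8 called members kept their direction in the alternatives run, and Mthfd2 kept its call in all 15. Counts of genes called over the whole table (569 higher, 653 lower) were 319 and 348 with no filter, and 414 lower with a filter at 5 FPKM, which tests fewer genes. They ranged from 113 to 691 and from 32 to 701 with 1 library left out. ATF4 targets called higher (5) numbered 3 with the filter at 5 FPKM, where Chac1 is not tested and Cebpb is at an adjusted limma p of 0.0512, and 1 to 5 with 1 library left out. Those called lower (1) numbered 0 with no filter, 2 with median-of-ratios scaling, 2 with quantile normalization and 0 to 2 with 1 library left out. ER chaperones called higher (1) numbered 0 with no filter, 5 with median-of-ratios scaling, 0 without a trend and 0 to 3 with 1 library left out. Where no construction explains these, the cause was not tested. The median log2 change of ATF4 targets (0.47) was 0.36 with the filter at 5 FPKM, 0.57 with median-of-ratios scaling and 0.39 to 0.66 with 1 library left out, and that of ER chaperones (0.29) was 0.39 with median-of-ratios scaling.

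The replicate block left 274 genes higher and 218 lower, 2 ATF4 targets higher and 0 ER chaperones higher, and of the called members Atf3, Trib3 and Mthfd2 remained. The numbers are not shown to pair libraries: same-numbered libraries had correlations of -0.128, -0.378 and -0.047 in their deviations from group means. No library correlated best with the library of its own number in the other group. The log2 change of 5 members that were never called changed sign: Aldh18a1 (-0.02 without control 2, -0.01 without control 3, -0.16 without K10-spastin 2), Atf6 (-0.01 without control 1, -0.001 without control 2, -0.002 without K10-spastin 2), Dnajc3 (-0.01 without K10-spastin 2), Nupr1 (0.36 with all libraries, -0.11 without K10-spastin 1) and Xbp1 (-0.02 with quantile normalization, -0.03 without control 3). With 1 library left out, these log2 changes reached 0.29 for Aldh18a1, 0.03 for Atf6, 0.21 for Dnajc3, 0.62 for Nupr1 and 0.16 for Xbp1. With 3 libraries a group, and fewer when one is left out, the spread between libraries limits what small changes can be called.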

Other observations

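The 3 K10-spastin libraries differ widely in Spast, from 1431 FPKM in the first through 639 to 213 FPKM in the third. The same descending order was found in 6 of 39 tested members (15.4%), which were Atf4, Trib3, Cebpb, Nupr1, Vldlr and Ppp1r15b, and in 11.2% of all 11071 genes tested. The opposite order was found in 9 members (23.1%) and in 23.9% of all genes tested. K10-spastin 1 also stands apart over all genes, and no relation to the level of Spast was tested.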
